A study of Mus musculus with 8 samples.

Results

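miR-143 and miR-145 are clustered microRNAs (miRNAs, short RNAs that repress messenger RNAs) of smooth muscle, and were measured here in whole mouse lung. They were taken by their array names, exactly mmu-miR-143 and mmu-miR-145, and are 2 of the 650 miRNAs on the array, 611 of them from mouse. Lungs came from female C57BL/6 mice (dams) instilled through the trachea while pregnant, either with Printex 90, a commercial carbon black nanoparticle, or with nanopure water as the vehicle control. The Printex 90 mice received 0.067 mg 4 times during gestation, first on day 7, then on days 10 and 15, and last on day 18, a cumulative 0.268 mg. All were killed at weaning, 26 to 27 days after exposure. The labels give neither age nor any genetic change, nor the number or days of the vehicle instillations. Each group had 4 one-colour arrays, and nothing in the labels ties an array to a mouse of its own, so the spread behind each p-value may be technical.

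miR-143 and miR-145 are processed from a common primary transcript. In mouse vessels and airways that transcript is switched on by serum response factor (SRF) with its partner myocardin, and the mature miRNAs restrain factors such as KLF4 and ELK1 that draw smooth muscle cells away from the contractile state. Both are therefore used as miRNA markers of smooth muscle. In the RefSeq gene table (GRCm38.p6) their genes, Mir143 and Mir145a, for which the older array name is a listed synonym, neighbour each other within the long non-coding RNA Carmn.

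Both miRNAs were detected on all 8 arrays. Of the passenger strands, miR-145*, the opposite arm of the miR-145 hairpin, was carried by 4 probes and detected on none, with 0 of 160 spots well above background, and miR-143* was not on the array. Marker miRNAs of the other lung cell types were present too: both endothelial ones, all 6 epithelial, all 4 leukocyte and all 3 erythroid ones were tested. The arrays carried 248 to 283 detected mouse miRNAs each, and 268 were tested. Relative signals divide a miRNA's intensity by the array's 75th percentile (of 240 mouse miRNAs present on every array), which lay between 580.8 and 804.7 intensity units, and no spot was saturated. Signals of different miRNAs are not compared in size. All arrays shared 1 slide and 1 scan. Slide row 2 held the Printex 90 arrays and row 1 the vehicle arrays, so an effect of the row and one of the exposure cannot be told apart.

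Printex 90 was compared with vehicle to see whether these smooth muscle miRNAs differed in the dams' lungs about 4 weeks after the instillations. Neither passed the test. Their mean signals were close between the groups, and 1 Printex 90 array stood high for both while Printex 90 replicates 2 and 4 were the lowest.

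The relative signal of miR-143 was 2.73, 1.71, 2.11 and 1.75 on Printex 90 replicates 1 to 4, against 1.99, 2.25, 2.36 and 1.85 on vehicle replicates 1 to 4. The groups overlapped: Printex 90 replicate 1 was the highest of all 8 arrays, and Printex 90 replicates 2 and 4 were the 2 lowest. The mean was 2.08 ± 0.470 after Printex 90 and 2.11 ± 0.232 in vehicle controls (SD, n = 4 each). The log2 difference (Printex 90 minus vehicle) was -0.04 (SE 0.16, limma adjusted p = 0.918), a 0.970-fold ratio with a 95% interval of 0.744 to 1.27. That interval leaves out a change of 1.5-fold in either direction.

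miR-145 had a relative signal of 0.538, 0.307, 0.378 and 0.312 on Printex 90 replicates 1 to 4, against 0.397, 0.451, 0.448 and 0.338 on vehicle replicates 1 to 4. The pattern was the same as for miR-143, with Printex 90 replicate 1 highest, Printex 90 replicates 2 and 4 lowest, and the groups overlapping. The mean was 0.384 ± 0.108 after Printex 90 and 0.408 ± 0.0533 in vehicle controls (SD, n = 4 each). The log2 difference was -0.12 (SE 0.20, limma adjusted p = 0.826), a 0.921-fold ratio with a 95% interval of 0.667 to 1.27. In whole lung RNA, a change in the number of smooth muscle cells and one in miRNA per cell could not be told apart.

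**Figure D1:**
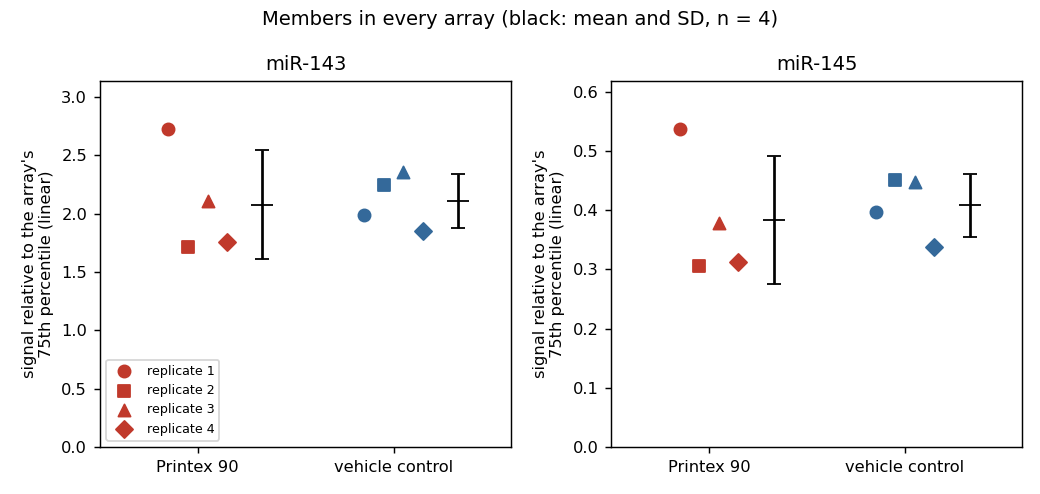
Signal of miR-143 and miR-145 relative to each array's 75th percentile (linear axis), by group, with a marker shape per replicate and the group mean and SD (n = 4) in black. Printex 90 replicate 1 is the highest point in both panels (2.73 and 0.538), and Printex 90 replicates 2 and 4 are the lowest.

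Neither of the 2 members was called, and the background was 0.0% of the 268 tested miRNAs past a limma adjusted p of 0.05. An unadjusted limma p under 0.05 was reached by 15 (5.6%), and neither member was among them. The groups did not overlap for 1.49% of the tested miRNAs, again without either member. Over all tested miRNAs the median log2 difference was -0.05, so miR-143 lay at the median of the array.

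Replicate spread of the scaled signals was large for both members beside that of other miRNAs. miR-143 ranged 1.59-fold over the 8 arrays and miR-145 ranged 1.75-fold, where the other 238 miRNAs present on every array had a median range of 1.31-fold. The SD within groups, on the log2 scale, was 0.25 for miR-143 and 0.30 for miR-145, against a median of 0.12, and only 24 and 15 of the 238 others had a larger one. Within the Printex 90 group the coefficient of variation was 22.6% for miR-143 and 28.1% for miR-145, and in vehicle controls it was 11.0% and 13.0%. The wider Printex 90 spread rested on replicate 1. With that array left out, the Printex 90 values were 11.81% and 11.96%, close to those of the vehicle controls. Before scaling, the coefficient of variation in vehicle controls was 3.60% for miR-143 and 2.39% for miR-145.

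Without Printex 90 replicate 1 the differences were larger and still did not pass. The log2 difference was -0.18 (SE 0.11) for miR-143 and -0.29 (SE 0.13) for miR-145, with a limma adjusted p of 0.655 each. That array was the highest of the 8 for 14.9% of all tested miRNAs.

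Before scaling between arrays, both miRNAs fell into tight sets of arrays. The summed probe intensity of miR-143 was 1717, 1236, 1227 and 1218 on Printex 90 replicates 1 to 4, against 1378, 1429, 1482 and 1490 on vehicle replicates 1 to 4. That of miR-145 was 338.3, 220.9, 219.6 and 217.0 after Printex 90, against 274.6, 286.6, 281.4 and 271.8 in vehicle controls. Printex 90 replicates 2 to 4 thus lay below all vehicle arrays for both, and Printex 90 replicate 1 above all of them. The log2 difference over all 8 arrays before scaling was -0.11 for miR-143 (exact permutation p = 0.429, 2-sided) and -0.19 for miR-145 (exact permutation p = 0.171, 2-sided), where the smallest p that 4 against 4 can give is 0.0286.

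With Printex 90 replicate 1 left out and no scaling, a setting chosen after the values were seen, miR-145 fell (log2 difference -0.35, SE 0.034, limma adjusted p = 0.0142) and miR-143 did not pass (-0.24, SE 0.040, limma adjusted p = 0.143). Over the 24 alternatives tried, the limma adjusted p of miR-145 ran from 0.0142 to 0.999, and no other alternative gave a call. In the same setting 7 of the 268 tested miRNAs (2.61%), both members among them, had all 3 Printex 90 arrays below all vehicle arrays. With scaling the share was 1.12%, and neither member was in it, since Printex 90 replicate 3 (2.11 for miR-143 and 0.378 for miR-145) lay within the vehicle range. Unscaled intensities carry the overall brightness of each array, and the median log2 difference of all tested miRNAs in that setting was -0.08.

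Each member was read by 2 probes with 10 spots per array, and the 4 probes gave like results. The log2 differences were -0.05 and -0.04 for the miR-143 probes and -0.10 and -0.13 for the miR-145 probes. Every spot kept was well above background, and Printex 90 replicate 1 was the highest array and Printex 90 replicate 2 the lowest for each probe on the scaled values.

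Spots of a probe varied less within an array than its scaled means did between the arrays of a group. On the log2 scale the SD between spots was 0.10 and 0.049 for the miR-143 probes and 0.071 and 0.072 for the miR-145 probes. The SD between arrays of a group, on scaled values, was 0.24 and 0.25 for miR-143 and 0.31 and 0.29 for miR-145. The standard error that spots gave a probe's mean was 0.033 and 0.016 log2 units for the miR-143 probes and 0.023 and 0.024 for the miR-145 probes. Spots of an array are repeat readings of 1 sample, so they add nothing to n. The SD between arrays holds sample and array differences and also the scaling, which the SD between spots does not.

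**Figure D2:**
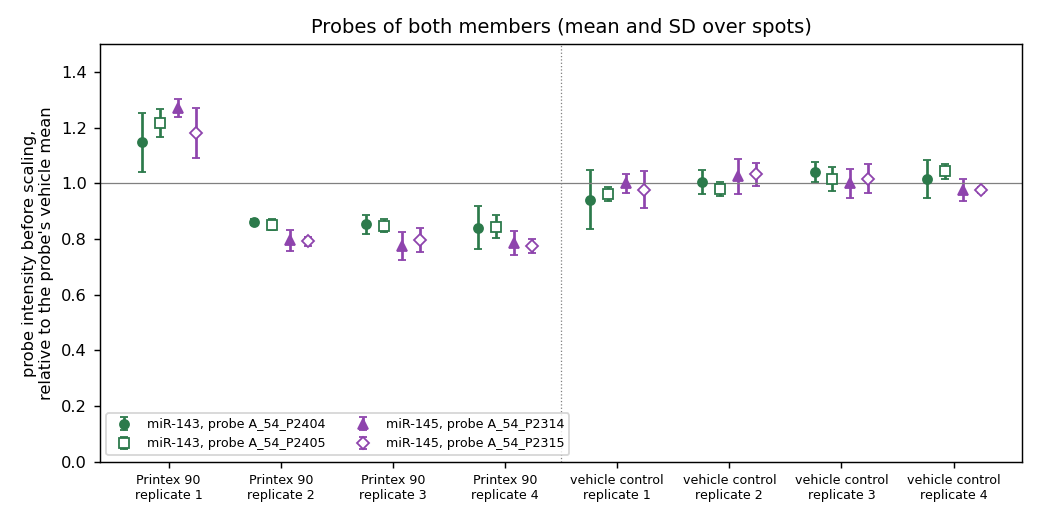
Intensity of each probe before scaling, divided by that probe's mean over the vehicle arrays, on the Printex 90 arrays (left) and the vehicle arrays (right). Points are means and bars SDs over spots. All 4 probes lie above 1 on Printex 90 replicate 1 and below the vehicle arrays on Printex 90 replicates 2 to 4.

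On scaled values, miR-143 and miR-145 went up and down together from array to array. Across the 8 arrays their log2 signals had a Pearson r of 0.981 (exact permutation p = 2.98e-04, adjusted p = 5.95e-04) and a Spearman rho of 0.952 (exact permutation p = 0.00114, adjusted p = 0.00228), adjusted over 6 relations computed. Without Printex 90 replicates 1 and 2, the arrays farthest from the median of miR-143, r was 0.953 over 6 arrays. After each group's mean was subtracted, r was 0.988.

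Scaling is shared by both miRNAs on an array, so the relation was also computed without it. Unscaled, r was 0.970 (exact permutation p = 0.00382, adjusted p = 0.00382) and rho was 0.833 (exact permutation p = 0.0154, adjusted p = 0.0154). Without Printex 90 replicates 1 and 4, r was 0.933 (exact permutation p = 0.0806) and rho was 0.6 over 6 arrays. Printex 90 replicate 1 lay above and Printex 90 replicates 2 to 4 below all vehicle arrays for both miRNAs. Among the vehicle arrays themselves, the 2 miRNAs did not share an order before scaling. Vehicle replicate 4 was the highest of them for miR-143 (1490) and the lowest for miR-145 (271.8).

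The ratio of the 2 miRNAs on an array is free of scaling and shows whether they moved unequally. As log2 miR-143 minus log2 miR-145, less its mean over the 8 arrays, it was -0.07, 0.07, 0.07 and 0.08 on Printex 90 replicates 1 to 4, against -0.08, -0.09, -0.02 and 0.04 on vehicle replicates 1 to 4. Printex 90 replicates 2 to 4 had the highest ratios, and Printex 90 replicate 1 lay among the vehicle arrays. The mean was 0.038 ± 0.071 after Printex 90 and -0.038 ± 0.064 in vehicle controls (SD, n = 4 each), a difference of 0.08 (exact permutation p = 0.171, 2-sided). The 95% interval of the ratio's change was 0.971 to 1.14-fold, and the whole range over the 8 arrays was 1.13-fold.

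**Figure D3:**
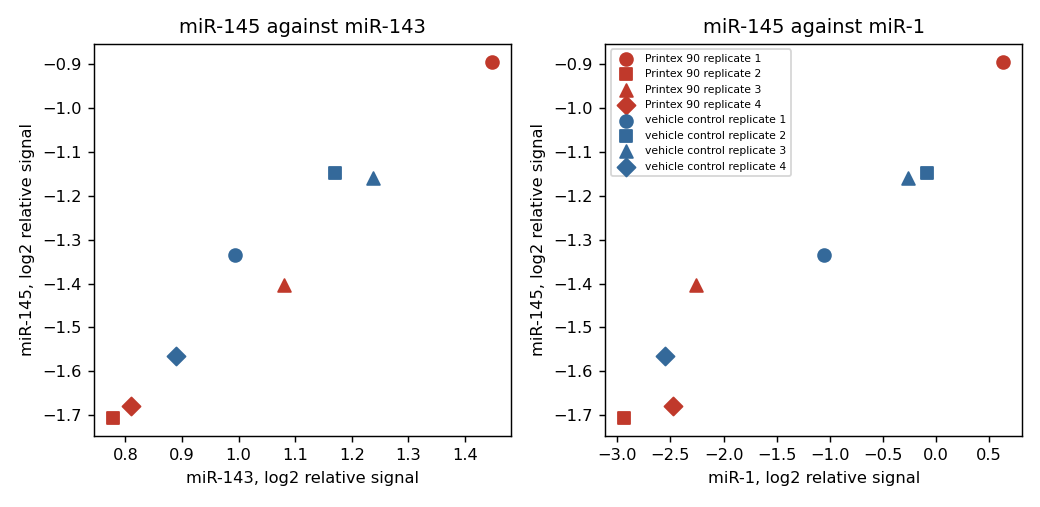
log2 relative signal of miR-145 against miR-143 (left) and against miR-1 (right) for the 8 arrays. The points run along a line in both panels (r of 0.981 and 0.966), with Printex 90 replicate 1 at the upper end and Printex 90 replicate 2 at the lower end of each.

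The miRNAs whose pattern over the 8 arrays was most like that of the members included each other and, for both, miR-1 and miR-133b, which striated muscle carries, and miR-193b. Likeness was the Pearson r of log2 relative signals against 239 other miRNAs detected on all arrays, given as a description since the nearest were picked by it. For miR-145 they were miR-143 (0.981), miR-1 (0.966), miR-133b (0.964), miR-133a (0.960) and miR-193b (0.897). For miR-143 they were miR-145 (0.981), miR-193b (0.946), miR-140 (0.920), miR-1 (0.916) and miR-133b (0.916). miR-1, miR-133a and miR-133b are abundant in heart and skeletal muscle, and miR-1 and miR-133a are also under SRF control. miR-140 is known from mouse cartilage, and miR-193b is encoded beside a copy of miR-365. Each of these had its highest signal on Printex 90 replicate 1. Without that array, r with miR-143 was 0.966 for miR-145, 0.898 for miR-193b, 0.941 for miR-140, 0.868 for miR-1 and 0.869 for miR-133b. Likewise r with miR-145 was 0.949 for miR-1, 0.947 for miR-133b, 0.940 for miR-133a and 0.814 for miR-193b.

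The mature sequences of 2 of these like-patterned miRNAs follow (RefSeq, GRCm38.p6), so that their seeds can be set side by side. Capitals mark the seed, bases 2 to 8, which pairs with targets. The array names carry no arm, and the arm shown is the one that these names came to denote.
mmu-miR-133b-3p: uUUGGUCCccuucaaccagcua
mmu-miR-193b-3p: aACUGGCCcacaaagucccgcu
Their seeds, UUGGUCC and ACUGGCC, differ. Both miRNAs were among the nearest patterns of each member, and their r with each other was not computed.

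The striated muscle miRNAs varied far more than the members while the arrays kept nearly the same order. miR-1 had a relative signal of 1.55, 0.131, 0.208 and 0.180 on Printex 90 replicates 1 to 4, against 0.482, 0.941, 0.832 and 0.171 on vehicle replicates 1 to 4. Its 4 lowest arrays, Printex 90 replicates 2 to 4 and vehicle replicate 4, were also the lowest 4 for miR-145. miR-133a was 0.549, 0.0504, 0.0730 and 0.0668 after Printex 90, against 0.169, 0.347, 0.306 and 0.0603 in vehicle controls. The same 4 arrays were lowest.

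As with the other nearest patterns, these relations are given as a description, and their p-values are left out. They were among the 6 relations over which the p-values of miR-143 with miR-145 were adjusted. Besides the values of r above, r was 0.909 for miR-143 with miR-133a. The rho was 0.976 for miR-145 with each of miR-1 and miR-133a, and 0.929 for miR-143 with each. Without Printex 90 replicates 1 and 2, r was 0.934 and 0.926 for miR-145 and 0.825 and 0.819 for miR-143. After each group's mean was subtracted, r was 0.967 for miR-145 with miR-1 and 0.934 for miR-143 with miR-1.

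Of the 7 cardiac and skeletal muscle markers, 4 were tested, and miR-208a, miR-208b and miR-499, which are encoded in myosin heavy chain genes, were detected on no array. The summed relative signal of the 7 ran from 0.312 to 3.06 after Printex 90 and from 0.382 to 1.92 in vehicle controls, highest on Printex 90 replicate 1. The part of these muscle miRNAs in the array-to-array pattern of miR-143 and miR-145 was not tested.

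Smooth muscle miRNAs were described in 3 lists, of which the contractile one holds miR-143 and miR-145 themselves. The contractile or SRF-driven list had 6 tested members of 9 listed, and 0 passed in either direction. All 6 had a lower mean log2 signal in Printex 90 lungs, as did 176 of the 268 tested miRNAs. Only 4 of the 6 are neither miR-143 nor miR-145, and their median log2 difference was -0.74. Among these 4, miR-1, miR-133a and miR-133b shared 1 pattern over the arrays. The median log2 difference of all 6 was -0.43, where that of all tested miRNAs was -0.05. That median was carried by miR-1 (-0.77, SE 0.91), miR-133a (-0.75, SE 0.90) and miR-133b (-0.74, SE 0.90), whose standard errors exceed their differences. miR-10a, which is linked to smooth muscle differentiation from mouse stem cells, measured 2.18 ± 0.257 after Printex 90 and 2.30 ± 0.206 in vehicle controls (log2 difference -0.08).

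The list of miRNAs linked to growth or the synthetic state of smooth muscle had all 7 members tested, and 0 passed in either direction (3 higher, 4 lower, median log2 difference -0.03). miR-221 and miR-222, which promote proliferation of vascular smooth muscle, measured 0.485 ± 0.0298 and 0.234 ± 0.00517 after Printex 90 and 0.496 ± 0.0287 and 0.247 ± 0.0197 in vehicle controls. Their 95% intervals ran from -0.17 to 0.11 and from -0.21 to 0.06 log2 units, much narrower than those of the members. The log2 differences of miR-221 and miR-222 were -0.03 and -0.08, and those of miR-24 and miR-26a were -0.09 and -0.11. The other members were miR-21 (0.49, limma adjusted p = 0.203), miR-146a (0.24) and miR-31 (0.20), miRNAs that immune or epithelial cells of the lung also carry. Their 95% intervals, not adjusted for the number of miRNAs tested, ran from 0.28 to 0.69, from -0.04 to 0.51 and from 0.04 to 0.36 log2 units. Those of miR-21 and miR-31 thus lay above 0.

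The mesenchymal list, the miR-199 and miR-214 miRNAs of fibroblasts and other stromal cells, had 5 of 6 members tested, and 0 passed (1 higher, 4 lower, median log2 difference -0.04). miR-199a-3p measured 3.81 ± 0.170 after Printex 90 and 3.91 ± 0.211 in vehicle controls, and miR-214 measured 0.165 ± 0.00853 after Printex 90 and 0.165 ± 0.00497 in vehicle controls. The log2 differences of miR-199a-5p, miR-199b* and miR-214* were 0.04, -0.09 and -0.18. No likeness to miR-143 or miR-145 placed a mesenchymal miRNA among the nearest 5.

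**Figure D4:**
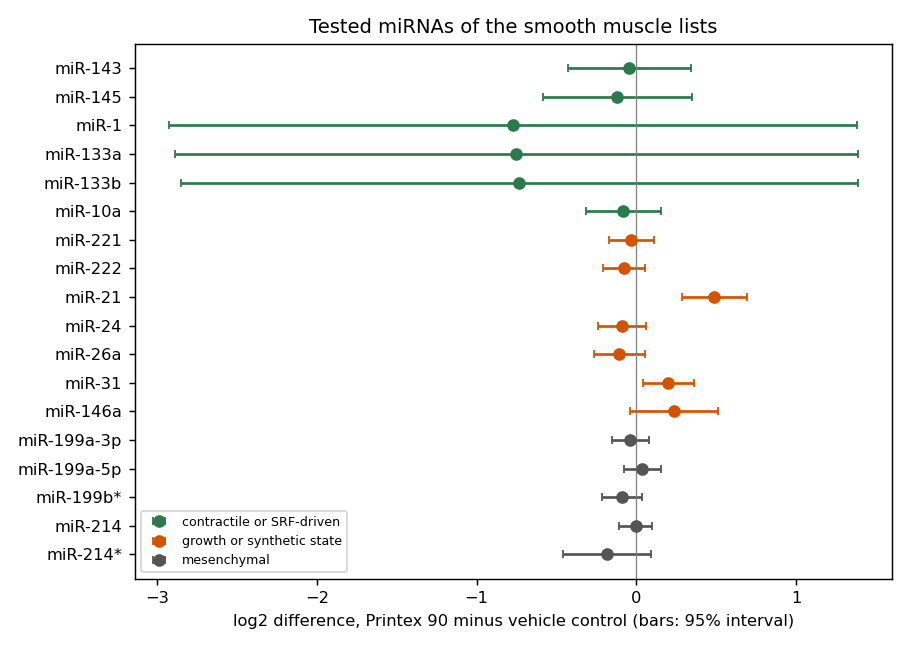
log2 difference (Printex 90 minus vehicle control) with its 95% interval for the 18 tested miRNAs of the 3 smooth muscle lists, coloured by list. The intervals of miR-143 and miR-145 span 0, and those of miR-1, miR-133a and miR-133b are the widest. Those of miR-221, miR-222 and the mesenchymal miRNAs other than miR-214* are narrow around 0, and those of miR-21 and miR-31 lie above 0.

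Over 24 alternatives the log2 difference of miR-143 ran from -0.24 to 0.04 and that of miR-145 from -0.35 to 0.0075.

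**Figure D5:**
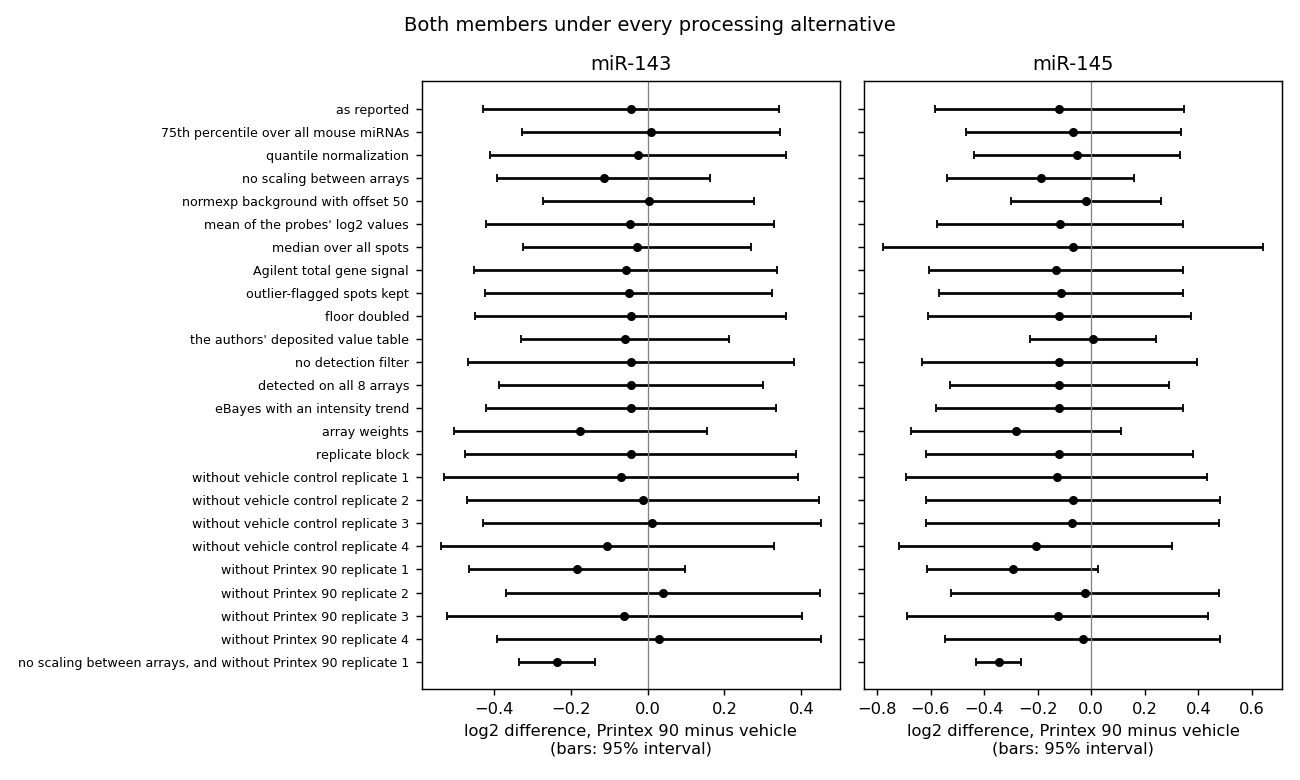
log2 difference (Printex 90 minus vehicle control) of miR-143 and miR-145 with its 95% interval, as reported and under each of 24 alternatives. The interval spans 0 in every row except the last, which has no scaling and leaves out Printex 90 replicate 1 (-0.24 and -0.35).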

How the data were processed

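Spot intensity values were deposited as Agilent Feature Extraction (version 10.7.3.1, design 021828) wrote them, per the file headers, with background subtracted within the array and no normalization between arrays. A miRvana kit gave total RNA enriched in small RNA, which was labelled with Cy3, per the labels' protocols. A second table, deposited by the authors, has log2 values made by steps not given in the sources used here. It served as an alternative only.

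Control spots and outlier-flagged spots were left out, the spots of a probe averaged and the probes of a miRNA summed. Detection on an array needed 50% or more of the kept spots of 1 probe to be well above background. Signals were divided by the 75th percentile, floored at 0.0388 and log2 was taken. Mouse miRNAs detected on 4 or more arrays (268) were fitted with lmFit and eBayes of limma 3.58.1 in R 4.3.3, with 2-sided p-values adjusted by Benjamini-Hochberg, after the step was tested on simulated data. Single values per array were compared by exact permutation over 70 assignments (SciPy 1.17.1). Since the files hold no mean signal, the normexp alternative used median spot signals. Named were the members, miR-145*, the tested members of 3 smooth muscle lists, the muscle markers and the 5 nearest patterns of each member. The members and lists were chosen with earlier results of these data known. No build is named in the files, and array features are given without coordinates. The number of arrays limits the precision.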

Additional observations from a re-analysis of the deposited data

Results flagged for a closer look

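In 46 groups of 4 arrays, covering 20 miRNAs, the unscaled signals of both members and their ratio, the gap between the extreme array and its nearest neighbour was divided by the group's range and compared with Dixon's 95% limit for groups of this size. It was exceeded in 5, where chance, at about 1 in 20, gives 2.3. The groups share arrays, and the unscaled signals and the ratio reuse the members' values. Setting 5 against 2.3 is therefore not a test. Of the 5 groups, 4 concern Printex 90 replicate 1. Before scaling (log2 of intensity over the mean 75th percentile of the arrays), miR-143 was 1.36 there with the next array at 0.88, and miR-145 was -0.99 with the next at -1.60. The log2 ratio of miR-143 to miR-145, less its mean over the arrays, was -0.069 there, with the next at 0.070. The scaled log2 signal of miR-133a was -0.87 there, with the next at -3.78. The scaled log2 signals of miR-143 and miR-145 did not exceed the limit in either group. The 5th was miR-199b* on Printex 90 replicate 3, at 1.30 with the next at 1.11.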

How the results depend on the processing

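miR-143 kept its direction and stayed uncalled in 19 of 24 alternatives. Among these, the doubled floor, the other detection filters, the trend and the replicate block cannot move its difference (-0.04 in each). Their direction was thus fixed in advance. It changed sign with the percentile taken over all mouse miRNAs (0.0088) and with normexp (0.0028). It also did so without vehicle replicate 3 (0.012), Printex 90 replicate 2 (0.040) or Printex 90 replicate 4 (0.029). Leaving out 1 replicate at a time gave -0.18 to 0.04 for miR-143 and -0.29 to -0.02 for miR-145. miR-145 changed sign in the authors' table (0.0075) and was called in 1 of 24, without scaling and without Printex 90 replicate 1 (-0.35). The difference of the 2 differences (0.08, exact permutation p = 0.171) was -0.065 in the authors' table and 0.022 with normexp. It was 0.027 with quantile normalization, 0.040 with the median over spots, and 0.06 to 0.11 with 1 replicate left out. The trend and array weights have no bearing on that exact test. The count of called miRNAs was 0 except without Printex 90 replicate 3 (3) and without scaling and Printex 90 replicate 1 (1), so leaving out 1 replicate gave 0 to 3, and the cause was not tested. Without scaling, the median of all tested miRNAs was -0.12 and miR-143 (-0.11) lay at it. With the replicate block, the differences were -0.04 and -0.12 (limma adjusted p = 0.915 and 0.796), that of the 2 differences was 0.08 and 0 miRNAs were called. Same-numbered arrays share only a number and a slide column: their deviations correlated at -0.14, -0.60, -0.38 and 0.75, and 1 of 4 numbers correlated best with its own.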
